A study of Rattus norvegicus with 12 samples.

Results

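The comparison described here is that of the right trigeminal ganglion of female Sprague Dawley rats that carried a 5% estradiol (E2) capsule for 1 week with that of rats that carried a vehicle capsule of 100% cholesterol. Its members were chosen by label: 3 libraries at 5% E2 and 3 of vehicle, 6 of the 12 libraries of the series. The labels equate the 5% capsule with the E2 level of diestrus, the phase of the rat cycle in which estrogen is low. The other 6 libraries, 3 at 20% E2 (labelled as the proestrus level) and 3 at 40% E2 (labelled as a therapeutic level), were used to find genes that stood apart at 5% alone. All 4 groups carried a capsule. Age, the state of the ovaries and whether each library is 1 rat are not given in the labels, so the spread that the p-values measure is that between these samples, and it may be technical. The question named in the title of the series is how E2 alters the effect of serotonin on trigeminal sensory neurons, by dose and timing.

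The trigeminal ganglion houses the neurons that sense touch, heat and pain in the face, mouth and meninges, each wrapped by satellite glia, with Schwann cells along their fibres. E2 diffuses into cells and binds the estrogen receptors alpha and beta, which act as transcription factors at estrogen response elements or through other bound factors, and a membrane receptor gives faster signals. In sensory ganglia estrogen receptors are known in both neurons and glia. In a bulk sample of the whole ganglion, fewer cells of a type and less RNA per cell cannot be told apart.

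Expression was given as FPKM, the fragments counted for a gene divided by the length of its gene model in kilobases and by the library's depth. A total of 32545 Ensembl rat identifiers were listed, and the 14781 with an FPKM of 1 or more in at least 3 of the 12 libraries were tested. The files do not pair identifiers with gene names, and 0 of the identifiers matched the 47357 genes of the reference table, which carries no Ensembl identifiers. Genes are therefore given by identifier for 2 higher and 2 lower genes and otherwise by the length of the gene model, and the marker genes of neurons, glia and other cell types were not checked. Depth, recovered from the values themselves, was 15215750 to 16121001 fragments at 5% E2, 13559866 to 16978830 in vehicle and 13281981 to 16900117 in the other groups. Vehicle replicate 1 stood apart from the other 11 libraries, with a mean root mean square distance to them of 0.497 (log2(FPKM + 1) scale), while the mean distances of the others were 0.427 to 0.455.

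The libraries at 5% E2 were as far from one another as from most vehicle libraries. The 3 pairs within the 5% group differed by a root mean square of 0.434 to 0.448 on the log2(FPKM + 1) scale. The 9 pairs of a 5% and a vehicle library differed by 0.429 to 0.507, with a mean of 0.460, and the 6 pairs without vehicle replicate 1 had a mean of 0.442. Pairs of a 5% and a 20% library had a mean of 0.435, and pairs of a 5% and a 40% library a mean of 0.443. The 3 vehicle libraries were farther from one another, with a mean of 0.481.

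No gene passed the threshold between 5% E2 and vehicle (limma-trend, Benjamini-Hochberg adjusted p under 0.05; 0 of 14781 genes, 0%). At an unadjusted p under 0.05 there were 812 genes (5.49%), of which 370 (2.5%) were higher and 442 (2.99%) lower at 5% E2. With limma's voom on the recovered fragments the counts were 0 genes past the threshold and 875 at an unadjusted p under 0.05, 456 higher and 419 lower. Without vehicle replicate 2 the unadjusted count was 1230, with 609 higher and 621 lower, and no gene passed. For 667 genes (4.51%) the lowest 5% library exceeded the highest of vehicle, and for 671 (4.54%) the highest 5% library was under the lowest of vehicle.

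Most genes differed little in level between 5% E2 and vehicle. The median gene had an absolute difference of 0.10 on the log2(FPKM + 1) scale, and 95% of genes lay between −0.49 and 0.56. A difference over 1 was found for 111 genes and one under −1 for 75. Of these, 87 and 51 belonged to the 4854 genes with a mean under 5 FPKM. The direction went with the level. Among the 745 genes with a mean of 100 FPKM or more, 505 (67.8%) were lower at 5% E2, with a median difference of −0.04, and at an unadjusted p under 0.05 there were 7 higher and 29 lower. Among genes under 5 FPKM, 2192 (45.2%) were lower, with 150 higher and 127 lower at an unadjusted p under 0.05. The median standard error of a single gene's difference was 0.08 in the highest class and 0.21 in the lowest. It does not measure the precision of a class median or share, which was not estimated. Without vehicle replicate 1 the highest class had 486 genes (65.2%) lower at 5% E2, with a median difference of −0.03 and 7 higher and 10 lower at an unadjusted p under 0.05.

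**Figure D1:**
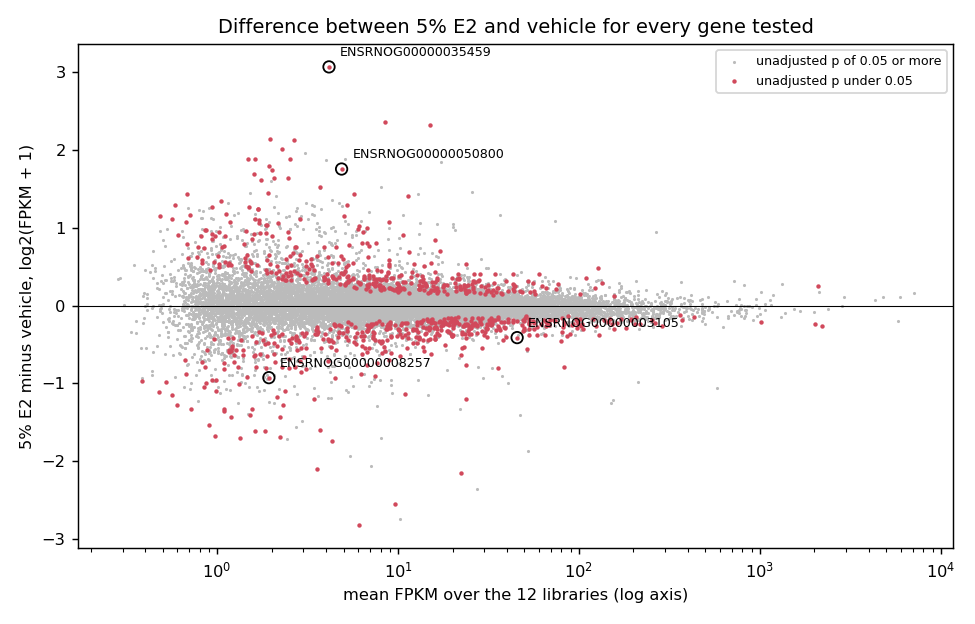
Difference between the means at 5% E2 and in vehicle on the log2(FPKM + 1) scale (vertical axis) against the mean FPKM over the 12 libraries (log axis) for the 14781 genes tested. Red points are the 812 genes with an unadjusted p under 0.05, none of which passed after adjustment, and circles mark the 2 higher and 2 lower genes given by identifier.

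ENSRNOG00000050800 had the smallest p of the comparison. It has a recovered gene model of 1743 bases. Its level was 17.3, 8.21 and 12.5 FPKM in the 3 libraries at 5% E2, and 3.16, 2.01 and 3.74 FPKM in vehicle. At 20% E2 it was 3.90, 1.77 and 1.58 FPKM, and at 40% E2 1.24, 1.37 and 1.74 FPKM. Every library at 5% E2 was thus higher than each of the other 9, the lowest of the 3 standing at 8.21 FPKM and the highest of the 9 at 3.90 FPKM. The 5% values rested on 461, 232 and 339 fragments and the vehicle values on 96, 47 and 110. Against vehicle the means of 12.7 ± 4.54 FPKM (SD, n = 3) and 2.97 ± 0.882 FPKM gave a log2(FPKM + 1) difference of 1.75 ± 0.29 (SE; 95% interval 1.12 to 2.38), which did not pass (limma adjusted p = 0.494).

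The second gene by p was ENSRNOG00000035459, whose recovered model is only 96 bases long. It was at 15.7, 5.79 and 7.35 FPKM at 5% E2 and at 0, 0 and 0.618 FPKM in vehicle. At 20% E2 it was at 5.39, 2.24 and 1.22 FPKM, and at 40% E2 at 5.43, 1.51 and 4.63 FPKM, so that all 9 E2 libraries lay above all 3 of vehicle. These levels stand for 23, 9 and 11 fragments at 5% E2 and a single fragment in the whole vehicle group. With fragments pooled by group, the ratio was 43.2 with an exact 95% counting interval of 7.36 to 1747. That interval leaves out the spread between libraries, and the gene was picked for its small p. The log2(FPKM + 1) difference of 3.06 ± 0.48 (SE) depends on the pseudocount and did not pass (limma adjusted p = 0.494).

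Among lower genes with a mean of 1 FPKM or more and no overlap between the groups, ENSRNOG00000003105 had the smallest p. Its level was 39.4, 41.6 and 38.7 FPKM at 5% E2 and 55.2, 52.7 and 52.4 FPKM in vehicle, so that the groups did not overlap. At 20% E2 it was 48.8, 41.9 and 41.6 FPKM and at 40% E2 45.7, 47.2 and 41.0 FPKM, in each case below every vehicle library. The gene model has 3472 bases, and each value rested on 1920 to 3336 fragments. The difference between 5% E2 and vehicle was −0.41 ± 0.08 (SE) on the log2(FPKM + 1) scale (limma adjusted p = 0.592).

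ENSRNOG00000008257, with a model of 1034 bases, was next. It stood at 0.948, 1.25 and 1.80 FPKM at 5% E2 and at 4.61, 2.88 and 2.87 FPKM in vehicle. The values at 20% E2 were 1.5, 1.80 and 1.81 FPKM and those at 40% E2 1.44, 1.12 and 1.15 FPKM, again all below vehicle. The difference between 5% E2 and vehicle was −0.93 ± 0.19 (SE, limma adjusted p = 0.592). For both lower genes, and for ENSRNOG00000035459, the comparisons of 20% and of 40% E2 with vehicle use the same vehicle libraries as that of 5%. For ENSRNOG00000008257 the differences from vehicle were −0.70 at 20% E2 and −0.97 at 40% E2, and for ENSRNOG00000003105 they were −0.27 and −0.26. Neither lower gene was detectably different between 5% and 20% E2 (intervals of −0.30 to 0.03 for ENSRNOG00000003105 and −0.64 to 0.18 for ENSRNOG00000008257).

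**Figure D2:**
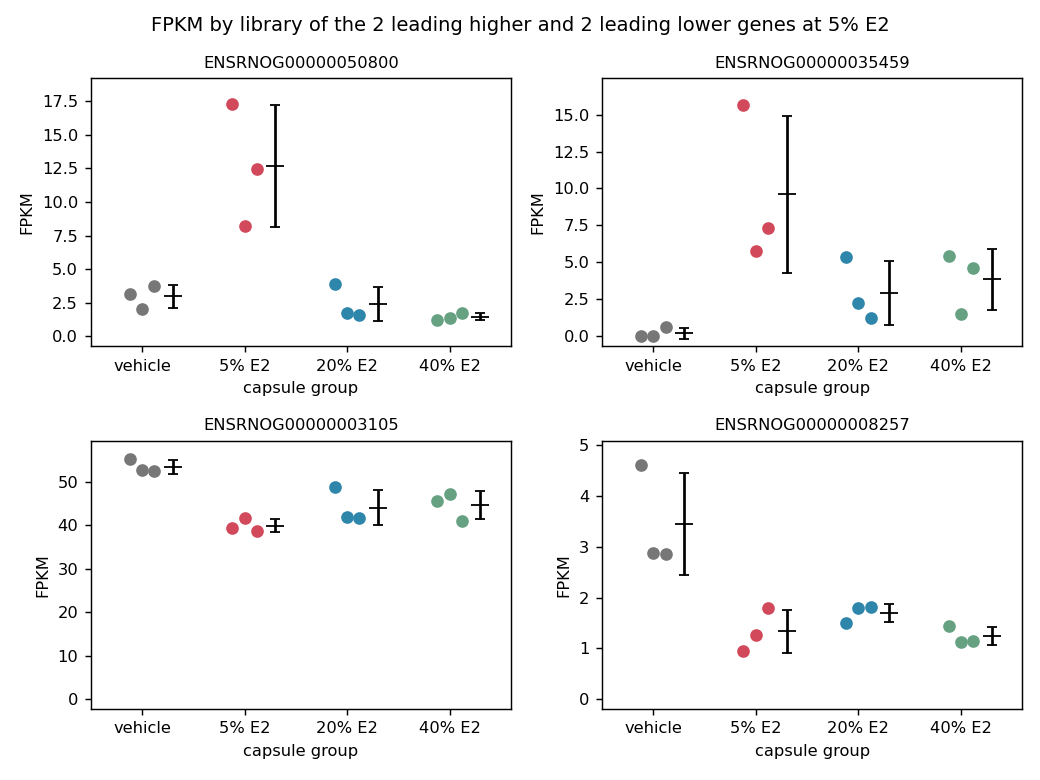
FPKM in each of the 12 libraries (points; 3 per capsule group) of the 2 higher and 2 lower genes with the smallest p for 5% E2 against vehicle, with the group mean and SD beside them. ENSRNOG00000050800 is at 8.21 to 17.3 FPKM at 5% E2 and at 3.90 FPKM or less in all other libraries, while the other 3 genes differ from vehicle in the same direction in all E2 groups.

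The 14 higher and 14 lower genes of smallest p with a mean of 1 FPKM or more and no overlap between the groups gave the range of what leads the comparison. The higher genes had differences of 0.29 to 3.06 (median 1.09) on the log2(FPKM + 1) scale and means of 1.60 to 34.0 FPKM. The lower genes had differences of −2.10 to −0.32 (median −0.50) and means of 1.61 to 128.8 FPKM. The largest difference each way came from a short model with few fragments. For 3.06 it was 96 bases, with 43 fragments at 5% E2 and 1 in vehicle. For −2.10 it was 79 bases, with 1 and 16. By group means, 13 of the 14 higher genes were also above vehicle at 20% E2 and 12 at 40% E2. Of the 14 lower genes, 1 was above vehicle at 20% E2 and 3 at 40% E2. All these comparisons use the same vehicle libraries. The smallest of the 14 higher differences at 5% E2 was also among the tightest. A gene of 3361 bases was at 37.0, 37.6 and 37.0 FPKM at 5% E2 and at 31.7, 29.7 and 29.5 FPKM in vehicle, a difference of 0.29 ± 0.06 (SE, limma adjusted p = 0.592). It was at 34.5, 34.4 and 35.2 FPKM at 20% E2 and at 35.1, 33.3 and 33.5 FPKM at 40% E2, also above every vehicle library. A gene of 2313 bases was at 10.1, 8.83 and 4.60 FPKM at 5% E2 and at 2.58, 3.51 and 2.49 FPKM in vehicle, a difference of 1.14 ± 0.22 (adjusted p = 0.592). It was at 5.72, 5.96 and 4.76 FPKM at 20% E2 and at 4.57, 3.57 and 3.88 FPKM at 40% E2. Each of these also lay above every vehicle library, and those at 20% E2 above the lowest at 5% E2. Without 5% E2 replicate 3, the lowest at 5% E2, the difference of this gene from vehicle was 1.44 and passed (limma adjusted p = 0.0256). Leaving out the 5% library nearest to vehicle raises the difference, so this adds no support. A gene of 3439 bases was at 4.60, 1.60 and 5.15 FPKM at 5% E2 and at 0.367, 0.477 and 0.310 FPKM in vehicle, a difference of 1.69 ± 0.36 (adjusted p = 0.592). Its 40% E2 libraries were at 0.368, 0.379 and 2.11 FPKM, the last of them above the lowest library at 5%.

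The 5% mean was then compared with the mean of the 3 other group means. This does not by itself show a difference from each of the 3 groups. In this comparison 1 of 14781 genes passed (0.00677%), with higher levels at 5% E2, and it was ENSRNOG00000050800. Its difference was 2.06 ± 0.23 (SE; 95% interval 1.55 to 2.58) on the log2(FPKM + 1) scale (limma adjusted p = 0.0285). At an unadjusted p under 0.05 there were 670 genes (4.53%), 292 higher (1.98%) and 378 lower (2.56%). Without 5% E2 replicate 1 there were 452 higher and 623 lower. With voom, 1 gene passed too, again ENSRNOG00000050800 (limma voom adjusted p = 0.00717), and the unadjusted split was turned, with 391 higher and 310 lower.

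The same gene was compared with each dose in turn. ENSRNOG00000050800 was higher at 5% than at 40% E2 by 2.43 ± 0.29 (SE, limma adjusted p = 0.0423), the 1 gene to pass of 14781 (0.00677%), with voom not passing (adjusted p = 0.215). Against 20% E2 its difference was 2.01 ± 0.29 and did not pass (limma adjusted p = 0.271), and no gene passed there (0 of 14781, 0%). At an unadjusted p under 0.05, 662 genes (4.48%) differed in level between 5% and 20% E2, 294 higher (1.99%) and 368 lower (2.49%) at 5%. By voom there were 276 higher and 374 lower, and with array quality weights 519 higher and 608 lower. Between 5% and 40% E2 there were 666 (4.51%), 312 higher (2.11%) and 354 lower (2.39%). Between 40% E2 and vehicle it differed by −0.68 (limma adjusted p = 0.842), and between 20% E2 and vehicle by −0.25 (adjusted p = 0.915). The call against the other groups was kept without 5% E2 replicate 2 (limma adjusted p = 0.0118) or 20% E2 replicate 1 (0.00673). These were the lowest library at 5% E2 and the highest library outside that group. Leaving out either raises the difference (to 2.32 and 2.16), so the kept call adds no support. The call was lost without any other single library, vehicle replicate 1 included (difference 2.08, limma adjusted p = 0.115), with adjusted p from 0.0576 to 0.292 and differences from 1.82 to 2.11.

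A looser description took the genes whose 5% group differed the same way from vehicle, from 20% E2 and from 40% E2, each at an unadjusted p under 0.05. There were 51 (0.345% of those tested), 20 higher (0.135%) and 31 lower (0.21%) at 5% E2. The number and the split depended on single libraries. Without 5% E2 replicate 1 there were 171, 59 higher and 112 lower, which held 31 of the 51. Without 5% E2 replicate 3 there were 60, 36 higher and 24 lower, which held 15 of the 51. The split also turned without 20% E2 replicate 2, with 23 higher and 15 lower. The 3 comparisons share the 5% libraries, and 50 of these genes did not pass in the comparison with the other groups. At 20% and at 40% E2, 17 of the 20 higher and 30 of the 31 lower genes had an unadjusted p of 0.05 or more against vehicle. ENSRNOG00000050800 was not among the 17 (limma unadjusted p = 0.0372 for 40% E2 against vehicle). The higher genes had a median difference from vehicle of 1.08 at 5% E2, −0.04 at 20% and −0.02 at 40%. For the lower genes the medians were −0.37, −0.0019 and −0.0043. The rule itself fixes this shape, so the medians are a description.

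Several genes of this set had short models or few fragments. Of the 20 higher genes, 7 had recovered models under 200 bases and 7 averaged under 30 fragments per library, and 2 had a mean of 20 FPKM or more. Of the 31 lower genes, 3 had models under 200 bases, 3 averaged under 30 fragments and 11 had a mean of 20 FPKM or more. Among all 14781 genes tested, 5.48% had models under 200 bases, 12% averaged under 30 fragments and 4505 had a mean of 20 FPKM or more. The higher and lower genes were not tested against each other in these shares.

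Among the lower genes, one with a model of 343 bases had the smallest p against the other groups. It was at 3.24, 3.78 and 3.74 FPKM at 5% E2 and at 8.21, 5.87 and 8.99 FPKM in vehicle. It stood at 5.82, 7.11 and 8.87 FPKM at 20% E2 and at 14.6, 10.8 and 8.21 FPKM at 40% E2, so that the 5% libraries lay together below the other 9. The difference from the other groups was −1.04 on the log2(FPKM + 1) scale (limma adjusted p = 0.310), and the 5% values rested on 17, 21 and 20 fragments. A gene of 219 bases with higher levels was at 85.4, 69.9 and 80.2 FPKM at 5% E2 and at 89.1 FPKM or more in each of the other 9 libraries (difference −0.39, adjusted p = 0.673). The most abundant gene of the set, of 1039 bases, was on the higher side, at 2136, 2486 and 2764 FPKM at 5% E2 against 2106, 2234 and 1866 FPKM in vehicle, and there the groups overlapped.

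**Figure D3:**
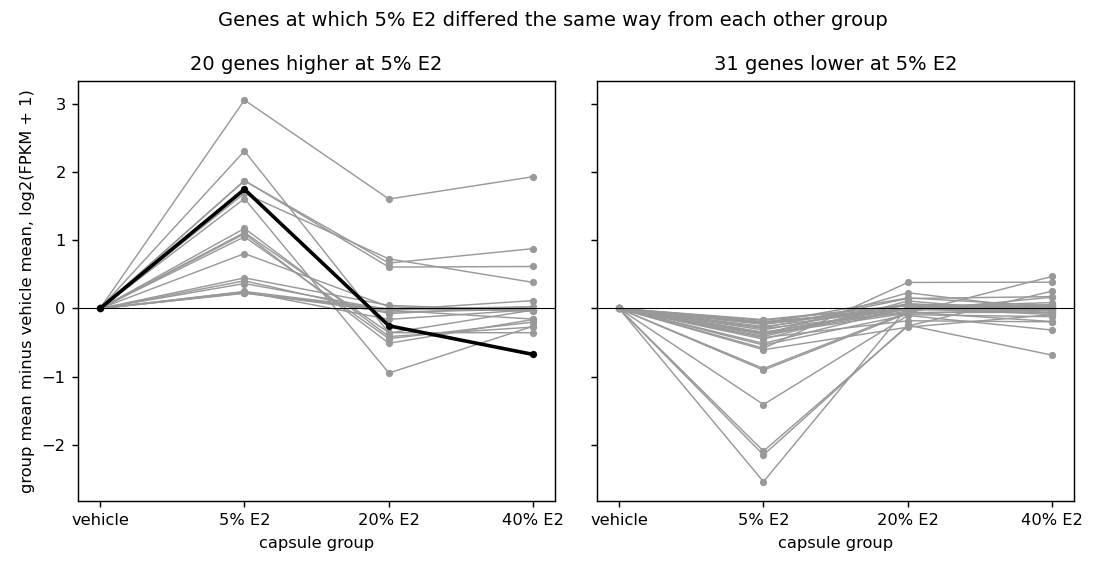
Group mean minus vehicle mean on the log2(FPKM + 1) scale in the 4 capsule groups for the 20 genes higher (left) and the 31 genes lower (right) at 5% E2 than in each other group at an unadjusted p under 0.05. Each line is a gene and the black line is ENSRNOG00000050800, at 1.75 at 5% E2, −0.25 at 20% and −0.68 at 40%; the return of the lines at 20% and 40% follows from how the genes were chosen.

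Some genes of the set varied widely within a group. A gene of 1593 bases was at 3.41, 22.7 and 2.86 FPKM at 5% E2 and at 30.2, 26.9 and 39.7 FPKM in vehicle, and 5% E2 replicate 2 lay within the range of the 20% group (17.1 to 37.0 FPKM). With all libraries it did not pass against vehicle (limma adjusted p = 0.889), and without that library it did (difference −2.99, adjusted p = 0.0348). Outside the set, a gene of 917 bases was at 41.1, 6.39 and 28.3 FPKM at 5% E2 and between 5.48 and 12.96 FPKM in the other 9 libraries, and one of 1399 bases at 8.41, 0.265 and 18.0 FPKM against 0.479 to 2.71 FPKM. In all 3 genes 5% E2 replicates 1 and 3 were together and replicate 2 was on the side of the other groups. With all libraries none of the 3 passed against the other groups (limma adjusted p = 0.928 for each). They were singled out because they passed there without 5% E2 replicate 2, the library that differed, so that this adds no support. A gene of 954 bases was at 22.9, 23.9 and 63.2 FPKM at 5% E2, but vehicle replicate 3 and 40% E2 replicate 2 also reached 24.4 and 20.4 FPKM while the other 7 libraries stayed at 9.45 FPKM or less.

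The libraries of each group were also counted by whether all 3 lay beyond the other 9, with no test. For 5% E2 this held above for 64 genes (0.433%) and below for 67 (0.453%), 131 genes in all (0.886%). For vehicle it held above for 92 (0.622%) and below for 93 (0.629%), 185 in all (1.25%). For 20% E2 it held above for 49 (0.332%) and below for 49 (0.332%), 98 in all (0.663%), and for 40% E2 above for 53 (0.359%) and below for 51 (0.345%), 104 in all (0.704%). The count was highest for vehicle, then for 5% E2, but this order was not tested. The share expected from random labels was not computed, so no count is read as an excess. Set against 8 libraries, with vehicle replicate 1 left out, the counts were 194 for 5% E2 (1.31%), 146 for 20% E2 (0.988%) and 159 for 40% E2 (1.08%). With fewer libraries to lie beyond, these counts cannot be smaller than those against 9. Of the 51 genes described above, 10 of the 20 higher and 19 of the 31 lower genes were among those of the 5% group. The 51 were chosen from the same values for differing from each other group, so this overlap adds no support.

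**Figure D4:**
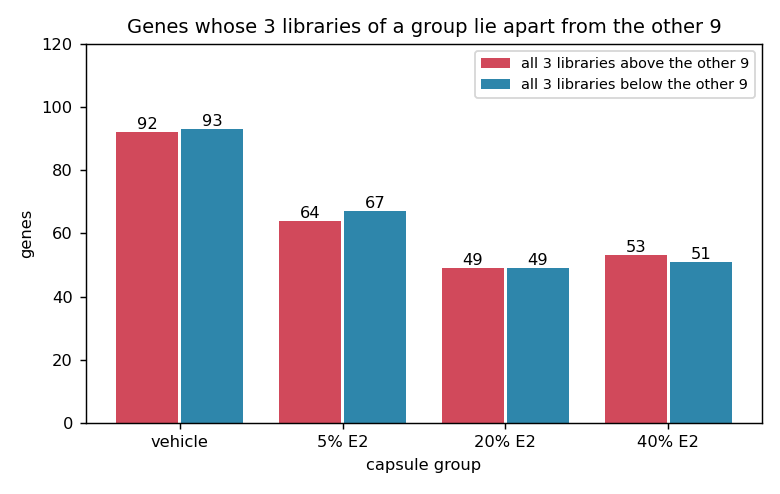
Number of genes, of 14781 tested, for which all 3 libraries of a capsule group lay above (red) or below (blue) the other 9 libraries. The 5% E2 group had 64 and 67, vehicle 92 and 93, 20% E2 49 and 49, and 40% E2 53 and 51. The order of the groups was not tested.

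The spread between libraries set what could be seen. The 95% interval of the difference between 5% E2 and vehicle had a median width to either side of 0.29 on the log2(FPKM + 1) scale, and of 0.20 for the 4505 genes with a mean of 20 FPKM or more. For 13148 genes (89%) the interval lay within 1 unit of 0. On this scale 1 unit is a doubling of FPKM for abundant genes and a larger ratio for scarce ones.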

How the data were processed

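RNA of 12 samples in 4 groups of 3 was compared. Per the submitters' processing notes, the tools were DESeq2, featureCounts, HISAT2, fastp and CASAVA, with no versions or roles. Build, annotation and strand setting were not given in the sources used here, so overlapping, antisense and near-identical genes may share fragments. The authors deposited FPKM values, 1 file per library. A table of the whole series was not used because its header has more fields than its rows, and it repeats the values of the single files.

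FPKM values were analysed as log2(FPKM + 1), where the fold of a scarce gene appears smaller than it is, after a filter of 1 FPKM in 3 libraries. One limma-trend fit (limma 3.58.1, R 4.3.3) of the 4 group means, with robust moderation, used all 12 libraries. The Benjamini-Hochberg adjustment was made per comparison over all genes tested. Whole fragments and model lengths were recovered from the steps of the FPKM values (Python 3.11.15) for 21071 genes above 0 in at least 2 libraries, with a largest deviation from a whole number of 0.000115 under an accepted tolerance of 0.002. They are the smallest whole numbers that fit, and fragment intervals cover counting error only. Recovery and fit were tested on simulated data. Every pair of replicates differed beyond sampling noise (lowest chi-square per degree of freedom 6.95).

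Members, rules and tests were chosen with earlier results of these data known. The plan held 33 gene lists and a rule for naming genes (smallest p, a mean of 1 FPKM or more, no overlap). Both needed symbols, so the lists were not analysed here, and the 2 higher and 2 lower genes given by identifier are the first of that rule without the symbol. Other genes, given by model length, were chosen after their values were seen. Alternatives were a pseudocount of 0.1, no filter, a filter of 5 FPKM, the compared groups alone, a replicate block, array quality weights, median-of-ratios scaling, voom on the recovered fragments, and each library left out in turn.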

Additional observations from a re-analysis of the deposited data

Results flagged for a closer look

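The level of ENSRNOG00000050800 differed between 2 doses tested against each other. Against vehicle the gene passed at neither dose (limma adjusted p = 0.494 at 5% and 0.842 at 40% E2). Its differences from vehicle were 1.75 at 5% and −0.68 at 40% E2. It was higher at 5% than at 40% E2 by 2.43 on the log2(FPKM + 1) scale (limma adjusted p = 0.0423, with a range of 0.0127 to 0.403 under other settings). Each of the 3 libraries at 5% exceeded each of the 3 at 40%. The gene was picked for its small p in these values, so this lack of overlap adds no support. The difference between the 2 doses was 2.19 to 3.05 over the alternatives and passed in 7 of 20.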

How the results depend on the processing

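The count for 5% E2 against vehicle stayed at 0 under every alternative but single libraries left out, where it was 0 to 1. A gene of 3926 bases passed without vehicle replicate 3, 1 of 2313 bases without 5% E2 replicate 3, and 1 of 1593 bases without 5% E2 replicate 2. For the first, vehicle was at 2.03, 2.56 and 7.11 FPKM. In each case the library left out was the one of its group nearest to the other group, so these passes add no support. Against the other groups the count of 1 became 0 with no filter on low values (adjusted p = 0.0776) and 0 to 4 with a library left out. Without 40% E2 replicate 2 the gene that passed was another one, of 79 bases and lower at 5% E2. It had 1, 0 and 0 fragments at 5% E2. The library left out was the one of the 40% group nearest to 5% E2, so this adds no support. Against 40% E2 the count of 1 became 0 with no filter, with the compared groups alone and with voom, and was 0 to 1 with a library left out. Against 20% E2 the count of 0 became 0 to 5 with a library left out. The 51 genes of the looser description became 115 with no filter (79 higher and 36 lower). Of these, 56 were among the 14781 genes that pass the filter and the rest were newly let in. With a library left out there were 37 to 171, the highest without 5% E2 replicate 1. Of the 51 genes, 6 were found in all 12 of those fits. With voom there were 43, of which 26 were shared. The cause of the other shifts was not tested. The 4 genes given by identifier kept their direction against vehicle under every alternative that tested them, and none passed. Same-numbered libraries of different groups did not deviate together (correlation −0.054 to 0.077 over 18 pairs), so the numbers were not taken as pairs. With the replicate block the counts were 0 against vehicle, 1 against the other groups, 0 against 20% E2, 1 against 40% E2 and 64 in place of 51. At an unadjusted p under 0.05 the 662 genes against 20% E2 became 1127 with array weights (519 higher and 608 lower), and the 812 against vehicle became 1230 without vehicle replicate 2, and the 670 against the other groups became 1075 without 5% E2 replicate 1. Depth limits the shortest gene models most: for the model of 96 bases a single fragment gave 0.618 FPKM.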
